A study of Mus musculus with 6 samples.

Results

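The genes described here are the small nucleolar RNAs, the small Cajal body RNAs and the small nucleolar RNA host genes of the mouse, chosen by symbol alone as the 134 of 24421 rows whose name starts with Snord, Snora, Scarna or Snhg followed by a number. They comprised 74 Snord genes (box C/D small nucleolar RNAs), 36 Snora genes (box H/ACA small nucleolar RNAs), 9 Scarna genes (small Cajal body RNAs) and 15 Snhg genes (hosts). They were read out by RNA sequencing of 6 libraries, each made from total RNA of retinal endothelial cells prepared from C57BL/6 pups at postnatal day 7. The 3 control libraries came from Anxa3 fl/fl pups and the 3 mutant libraries from Anxa3 fl/fl;Tie2-Cre pups, so both groups carried floxed alleles of Anxa3, which encodes a calcium-dependent phospholipid-binding protein, and only the mutants carried Cre. An effect of Cre itself and of Anxa3 loss cannot be told apart, and Tie2-Cre acts in endothelial cells and in cells of the blood lineage. Whether a library holds 1 pup or several is not in the labels, and the tests therefore rest on the spread between these libraries, which may be technical.

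Most of these RNAs work in the nucleus as guides. A box C/D RNA pairs with ribosomal or spliceosomal RNA and directs ribose methylation by fibrillarin, a box H/ACA RNA directs the conversion of uridine to pseudouridine by dyskerin, and a Cajal body RNA does the same on spliceosomal RNAs. In mammals most of them are cut out of the introns of other genes, so that each copy of a guide comes from a spliced copy of its host. Hosts include ribosomal protein and translation factor genes, and the Snhg genes, whose spliced RNAs code for little or no protein and are often removed by nonsense-mediated decay. Most mature guides carry no poly(A) tail. The TruSeq RNA Library Prep Kit v2 named in the labels is known as a kit that captures poly(A) tails, so the reads assigned to a guide can come from the mature RNA, from its precursor or from the host transcript around it, and how they divide was not tested.

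The values are FPKM as the authors deposited them, which scale fragments to the length of a gene and to the depth of its library. Whole read numbers were recovered from them, and they summed to 21373575 in mutant 1 and up to 30880617 in control 1, with 13330 to 13693 genes at 1 FPKM or more per library. The labels also letter the libraries, with A, C and D for controls 1, 2 and 3 and B, E and F for mutants 1, 2 and 3, without saying what they mean. The targeted gene Anxa3 measured 18.7, 17.7 and 43.4 FPKM in controls 1, 2 and 3 and 9.78, 12.5 and 15.1 FPKM in mutants 1, 2 and 3, lowest in the 3 mutants, with exact permutation p = 0.1, the smallest that 20 arrangements allow. Of 20 pan-endothelial markers all were present, and their mean level on the log2(FPKM + 1) scale was 4.98, 4.86 and 5.95 in controls 1, 2 and 3 and 4.96, 5.09 and 5.31 in mutants 1, 2 and 3. Markers of photoreceptors, whose mean level was 7.00 to 7.70 on that scale, stood above the endothelial markers in each library, so the preparations also held RNA of other retinal cells. Microglia and macrophage markers had mean levels of 1.89 to 2.89 and pericyte and smooth muscle markers 3.32 to 4.06 on the same scale. In bulk libraries, fewer cells of a type and less RNA per cell cannot be told apart.

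The letters that define the classes can be read in the sequences of the guides the results turn on. The following sequences come from GENCODE M21 transcripts on GRCm38, 5′ to 3′ in the sense of the RNA and written with T for U. In the box C/D RNAs the capitals mark TGATGA within the first 25 bases (box C, where that exact form was found) and the last CTGA within the last 20 bases (box D). The first 5 are the Snord genes with the smallest p-values among those higher in mutants. Snord99 lies at chr4:132310691-132310764, plus strand, within an exon of Snhg12. Snord71 lies at chr8:109839295-109839379, plus strand, in an intron of Ap1g1. Snord52 lies at chr17:34950952-34951017, minus strand, within an exon of 1110038B12Rik. Snord93 lies at chr5:23852210-23852280, plus strand, in an intron of 2700038G22Rik. Snord66 lies at chr16:20684239-20684313, plus strand, over an exon edge of Eif4g1.
Snord99: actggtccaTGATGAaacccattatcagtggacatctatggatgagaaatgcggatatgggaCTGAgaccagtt
Snord71: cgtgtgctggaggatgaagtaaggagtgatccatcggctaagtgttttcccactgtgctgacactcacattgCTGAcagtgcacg
Snord52: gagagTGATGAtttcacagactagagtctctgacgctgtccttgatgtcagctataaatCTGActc
Snord93: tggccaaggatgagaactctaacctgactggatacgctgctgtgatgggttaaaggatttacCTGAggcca
Snord66: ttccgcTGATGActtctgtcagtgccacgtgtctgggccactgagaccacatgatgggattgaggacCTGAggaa

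Snord88c and Snord88a are shown because they are near copies whose values went opposite ways. Snord88c lies at chr7:44249852-44249941, plus strand, in an intron of 2410002F23Rik, and Snord88a at chr7:44250135-44250224, plus strand, within an exon of 2410002F23Rik. Aligned over 90 columns they shared 85 bases, which is 94.4% identity, so reads could be split between the copies and both values are uncertain.
Snord88c: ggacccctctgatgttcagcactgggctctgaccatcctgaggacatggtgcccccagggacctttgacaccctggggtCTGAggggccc
Snord88a: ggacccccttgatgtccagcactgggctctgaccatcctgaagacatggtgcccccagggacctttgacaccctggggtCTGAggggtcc

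Snord17 and Snord15b are the box C/D RNAs with the highest mean FPKM, and both are far longer than those above. Snord17 spans 238 bases at chr2:144265979-144266216, minus strand, in an intron of Snx5. Snord15b spans 145 bases at chr7:99479563-99479707, minus strand, within an exon of Rps3.
Snord17: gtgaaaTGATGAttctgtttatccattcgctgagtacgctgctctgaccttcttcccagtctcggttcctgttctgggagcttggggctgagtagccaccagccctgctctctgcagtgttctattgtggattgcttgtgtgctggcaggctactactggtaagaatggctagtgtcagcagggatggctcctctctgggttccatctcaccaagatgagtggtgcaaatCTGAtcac
Snord15b: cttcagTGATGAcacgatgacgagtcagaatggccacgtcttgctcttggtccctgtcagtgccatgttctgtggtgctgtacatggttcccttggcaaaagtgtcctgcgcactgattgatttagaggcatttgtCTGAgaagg

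In the box H/ACA RNAs the capitals mark the ACA near the 3′ end for which the class is named. Snora23 had the smallest p-value of its class, and Snora78 the largest difference. Snora23 lies at chr7:110046364-110046547, plus strand, in an intron of Ipo7. Snora78 lies at chr17:24719676-24719803, minus strand, in an intron of Snhg9.
Snora23: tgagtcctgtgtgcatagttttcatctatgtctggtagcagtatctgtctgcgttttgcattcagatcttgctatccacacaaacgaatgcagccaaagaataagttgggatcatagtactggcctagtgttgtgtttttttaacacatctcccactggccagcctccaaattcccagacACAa
Snora78: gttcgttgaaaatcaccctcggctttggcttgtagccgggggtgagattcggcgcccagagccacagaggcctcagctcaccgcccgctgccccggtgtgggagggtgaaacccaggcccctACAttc

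Scarna2 and Scarna10, the guides with the most reads, are shown for another reason, namely that the capitals mark the part spanned by the RefSeq gene model whose length fits the deposited FPKM. That part was 61 of 414 annotated bases in Scarna2 and 71 of 325 in Scarna10. The last 120 bases of each are printed, at chr3:108554338-108554457, minus strand, with no annotated host, for Scarna2, and at chr6:125186359-125186478, minus strand, over an exon edge of Ncapd2, for Scarna10.
Scarna2: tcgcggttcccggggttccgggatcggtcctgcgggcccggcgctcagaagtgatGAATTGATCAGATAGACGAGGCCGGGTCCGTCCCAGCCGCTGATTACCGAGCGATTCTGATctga
Scarna10: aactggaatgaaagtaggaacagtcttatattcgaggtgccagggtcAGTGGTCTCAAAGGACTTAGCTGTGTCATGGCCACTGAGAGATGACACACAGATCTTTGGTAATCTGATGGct

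TGATGA stood in the first 25 bases of 46 of 73 matched Snord members (63.0%) and CTGA in the last 20 bases of 71 of 73 (97.3%). Of 34 matched Snora members, 28 had ACA exactly 3 bases from the end (82.4%), and 32 had it within the last 12 (94.1%). Among 23482 other GENCODE transcripts of 50 to 450 bases the corresponding shares were 0.9%, 10.1%, 1.8% and 15.6%. Only the strand of the RNA was searched, and the windows for box C and box D do not overlap in any of these guides. The 9 Scarna members were mixed, with ACA within the last 12 bases of 5 and TGATGA anywhere in 6, and Cajal body RNAs are known to combine both box types. A box that was not found, as for box C in Snord71 and Snord93, says only that those exact letters are not in that window.

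Guide RNAs gave few reads in these libraries, and a handful of long ones gave most of them. Of the 134 members, 123 had reads in at least 1 library, 117 reached 1 FPKM in at least 3 libraries and were tested, and 11 were listed at 0 throughout. The members listed at 0 included Snord116, Snord116l1 and Snord116l2, which are cut from Snhg14, although Snhg14 itself measured 19.5, 19.0 and 21.5 FPKM in controls 1, 2 and 3 and 19.1, 25 and 22.4 FPKM in mutants 1, 2 and 3. Snord14c and Snord14d of the chaperone gene Hspa8 were also listed at 0, with their host at 74.7 to 97.9 FPKM. A value of 0 in a table without counts can be a failed estimate for a repeated or overlapping gene.

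Behind the median tested guide lay a mean of 25 reads per library, and 16 of 103 had fewer than 10. By contrast the 6 guides with the most reads, Scarna2, Scarna10, Snord17, Scarna6, Scarna13 and Snord15b, held 65.4%, 67.3% and 73.5% of all guide reads in controls 1, 2 and 3 and 64.1%, 77.3% and 77.3% in mutants 1, 2 and 3. FPKM divides by the length of the gene model, and that length was under the annotated one in 85 of 99 guides compared, with a median ratio of 1.14 and a ratio of 1.5 or more in 13. The order of levels between guides therefore depends on the gene model, most of all for Scarna2 and Scarna10, whereas a comparison of libraries for a single guide does not.

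Between mutant and control libraries, 0 of the 117 tested members passed at a limma adjusted p under 0.05, and 0 of all 13620 genes tested did (0%). On the recovered reads limma voom also called 0. By contrast limma with weights estimated per library called 27 of the 117 tested members, all of them higher in mutants, and 1.06% of all genes. With those weights and before adjustment, 65 of the 117 tested members were higher at a p under 0.05, against 15.2% of all genes. On the lower side were 8 of the 117, against 14.6% of all genes. The weights also raised these shares over all genes, which were 0.896% and 0.316% without them. In the limma fit of all libraries with neither weights nor a block, the smallest adjusted p of any member was 1. With p-values of that fit before adjustment, 11 members (9.4% of those tested) lay under 0.05 and were higher in mutants, against 0.896% of all genes. Another 2 members lay under 0.05 and were lower, against 0.316% of all genes. The groups did not overlap for 8 members that were higher (6.84% of those tested), against 2.79% of all genes, and for 2 that were lower, against 1.56%. Both counts of higher members include Snord123, which passed the filter only through the mutants, so its direction was fixed in advance. They also include Snhg9, of whose controls only control 1 reached 1 FPKM, so that the filter favoured higher mutant values. The differences of 77 of 117 members were positive, against 47.5% of all genes, and their median was 0.14 on the log2(FPKM + 1) scale, against -0.01 for all genes. Without mutant 1 the members under 0.05 before adjustment numbered 37 higher and 4 lower, against 2.92% and 2.02% of all genes in the same fit. Without mutant 2 they numbered 8 and 5, against 0.541% and 0.393%, and without control 3 they numbered 23 and 3, against 1.82% and 0.445%. Members share libraries, hosts and reads, so these counts describe the list and are no test of it.

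By class, the 64 tested Snord genes had a median log2 difference of 0.02, with 34 positive and a range from -0.83 to 1.45. The 31 Snora genes had a median of 0.20 with 25 positive, the 8 Scarna genes 0.27 with 7 positive, and the 14 Snhg genes 0.16 with 11 positive. The members under 0.05 before adjustment were 6 Snord genes that were higher (9.38% of those tested) and 2 that were lower, 4 Snhg genes that were higher (28.6%), 1 Snora gene that was higher (3.23%) and 0 Scarna genes, against 0.896% of all genes higher and 0.316% lower. The difference between classes was not tested.

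The long guides took the most reads, and their mutant means were above their control means through mutants 2 and 3. Snord17, a guide to the large ribosomal RNA cut from an intron of Snx5, measured 57.3, 71.8 and 322 FPKM in controls 1, 2 and 3 and 90.4, 550 and 556 FPKM in mutants 1, 2 and 3. Mutants 2 and 3 were the highest, control 3 came next, and mutant 1 sat near controls 1 and 2, so the groups overlapped. Its log2 difference was 1.45, and the limma 95% confidence interval of -0.49 to 3.39 included 0.

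Mutants 2 and 3 on top, with control 3 next, also held for guides of other classes. Scarna10, which guides both kinds of modification on the U5 spliceosomal RNA, measured 764, 561 and 1293 FPKM in controls 1, 2 and 3 and 580, 2705 and 2246 FPKM in mutants 1, 2 and 3. Scarna6, from an intron of the autophagy gene Atg16l1, measured 48.6, 35.8 and 128 FPKM in the controls and 35.6, 224 and 203 FPKM in the mutants. In both, control 3 was above the other controls. Mutant 1 lay between controls 1 and 2 in Scarna10 and just below control 2 in Scarna6.

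Snord15b and Snord15a, guides to the large ribosomal RNA that share the host Rps3 and 66.0% of aligned bases, also had mutants 2 and 3 highest and control 3 next. Snord15b measured 59.4, 33.9 and 96.4 FPKM in controls 1, 2 and 3 and 30.8, 271 and 332 FPKM in mutants 1, 2 and 3. For Snord15a the values were 11.2, 5.86 and 27.1 FPKM in the controls and 10.3, 37.5 and 34.5 FPKM in the mutants. In each, mutant 1 was below control 1. Their host Rps3, a protein of the small ribosomal subunit, ranged only from 97.0 to 128 FPKM over the 6 libraries.

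Among the Snora genes, Snora74a, a guide to the large ribosomal RNA, had the highest mean, and measured 29.6, 15.9 and 75.7 FPKM in controls 1, 2 and 3 and 23.0, 149 and 151 FPKM in mutants 1, 2 and 3. Snora68 measured 17.2, 9.27 and 30.0 FPKM in the controls and 17.9, 59.3 and 66.8 FPKM in the mutants (log2 difference 1.25, interval -0.00 to 2.49). Snora23, from an intron of the nuclear import gene Ipo7, measured 8.98, 9.88 and 12.2 FPKM in the controls and 10.6, 18.5 and 21.1 FPKM in the mutants, and was the only Snora gene under 0.05 before adjustment (log2 difference 0.60, interval 0.05 to 1.15). All of them had mutants 2 and 3 on top, and in all of them mutant 1 lay within the range of the controls. Scarna2, a guide to the U2 spliceosomal RNA with the highest mean of all members, varied less, from 1287 FPKM in mutant 1 to 2755 FPKM in mutant 2, and its log2 difference was 0.14 (interval -0.95 to 1.22).

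**Figure D1:**
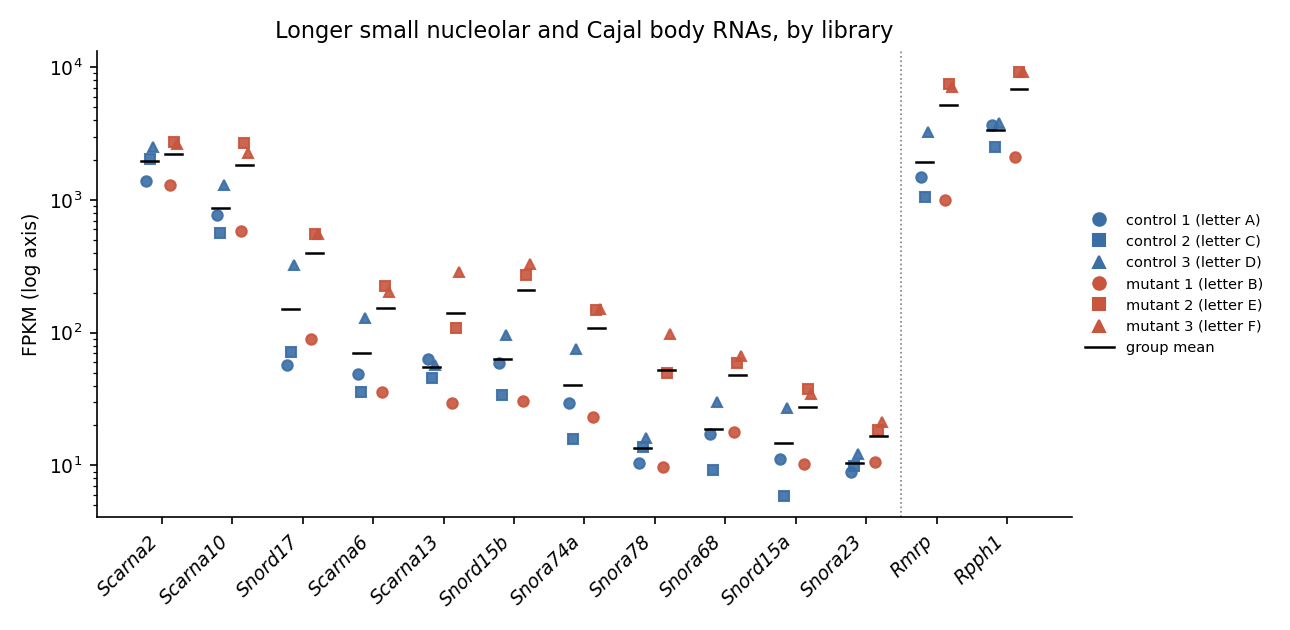
FPKM on a log axis of 11 guide RNAs, and of Rmrp and Rpph1 to the right of the dotted line, in 3 control (blue) and 3 mutant (red) libraries, with symbols for the replicate and bars for the group mean. Mutants 2 and 3 lie on top for each gene shown, while mutant 1 lies within the range of the controls or below it, as in Snord17, where mutant 1 is at 90.4 FPKM and control 3 at 322 FPKM.

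The guides were also grouped by annotated length, with bounds chosen after the values were seen. All 12 tested guides of 140 bases or more had a positive log2 difference, with a median of 0.90. Of 33 guides of 100 to under 140 bases, 25 were positive with a median of 0.24, and of 56 guides under 100 bases, 28 were positive with a median of 0.00. Across 101 guides with an annotated length, the Spearman correlation of length with the log2 difference was 0.36, given as a description because the guides share the 6 libraries. Level went with the difference as well, at 0.30 for mean FPKM across the same guides, while length and level correlated at 0.07. The median of mean FPKM was 86.2 in tested guides of 140 bases or more and 11.8 in those under 100 bases. The parts of length and of level were not tested.

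The length groups also differed between libraries in summed reads. Scaled to the depth of the library as RPM, the reads of guides of 140 bases or more came to 204, 217 and 404 RPM in controls 1, 2 and 3 and 170, 660 and 709 in mutants 1, 2 and 3. Guides under 100 bases took 53.2, 53.2 and 62.0 RPM in the controls and 45.4, 69.6 and 62.5 in the mutants. The long group thus spanned a far wider range over libraries than the short group, and in both the lowest library was mutant 1. For 14 of the 15 Snhg genes, which are spliced and polyadenylated, the gene length was not taken from RefSeq and the smallest length that gave whole reads was used, so their true read numbers may be a whole multiple of those given. On that basis they took 252, 275 and 310 RPM in the controls and 252, 357 and 379 in the mutants.

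**Figure D2:**
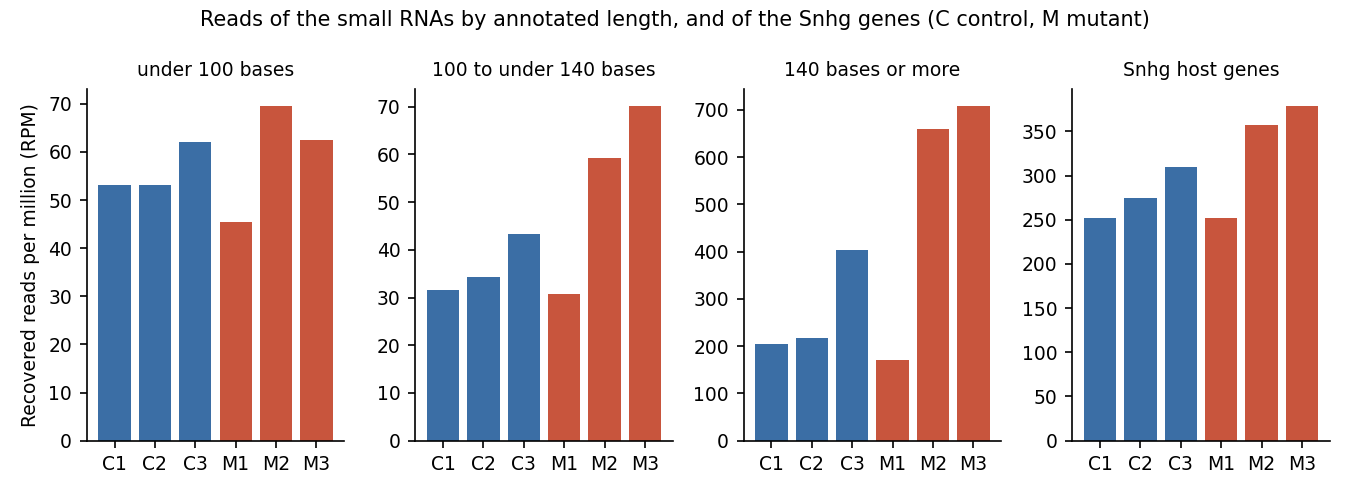
Recovered reads scaled to library depth (RPM) for guide RNAs in 3 bins of annotated length and of the Snhg genes, 1 bar per library (C1 to C3 control in blue, M1 to M3 mutant in red), each panel with its own axis from 0. In the group of 140 bases or more, mutants 2 and 3 reach 660 and 709, control 3 reaches 404, and the other libraries lie from 170 to 217.

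This order of libraries followed the letters in the labels when these were split into A to C and D to F. The labels give single letters only, and the split was made here. In 11 of the 12 guides of 140 bases or more, each of the libraries lettered D to F (control 3, mutants 2 and 3) was above each of those lettered A to C (controls 1 and 2, mutant 1), against 15.1% of all genes. The exception was Scarna13, at 63.5, 45.8 and 57.0 FPKM in controls 1, 2 and 3 and 29.5, 108 and 286 FPKM in mutants 1, 2 and 3. Among 33 guides of 100 to under 140 bases the count was 11, and among 56 under 100 bases it was 9. With the letters as a block in the limma fit, 16 members were higher and 12 lower at a p under 0.05 before adjustment, against 3.62% and 3.19% of all genes, and 0 passed after it. In that fit the median for guides of 140 bases or more was 0.36 in place of 0.90. Snord17 fell to a log2 difference of 0.63 in place of 1.45, Snord15b to 0.55, Snora74a to 0.53, Scarna10 to 0.38 and Scarna6 to 0.25. With no block, Snord17 was at 2.32 without mutant 1 and 2.22 without control 3, and at 0.99 without control 1. With no block, that median was 1.62 without mutant 1, 0.55 without mutant 2, 0.49 without mutant 3 and 0.59 without control 2. Letter and genotype are not balanced, since mutant 1 is the only mutant lettered A to C and control 3 the only control lettered D to F, and the part of the letters in these differences was not tested.

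Other short RNAs without a poly(A) tail, which are no members, mostly also had the libraries lettered D to F on top. Rmrp, the RNA of the ribonuclease that processes ribosomal and mitochondrial RNA, measured 1489, 1059 and 3273 FPKM in controls 1, 2 and 3 and 1007, 7435 and 7122 FPKM in mutants 1, 2 and 3. Rpph1, the RNA of ribonuclease P, measured 3700, 2515 and 3805 FPKM in the controls and 2112, 9210 and 9149 FPKM in the mutants. Of 10 such genes in the list, 8 were tested and 8 had a positive log2 difference, with a median of 0.58, and in 6 of the 8 the libraries lettered D to F were all above those lettered A to C. Genes named Hist1h, whose messenger RNAs also end without a poly(A) tail, had 42 of 46 positive, a median of 0.29 and 31 of 46 in that order. Genes named Mir had 236 of 456 positive and a median of 0.02. In 83 of the 456 the libraries lettered D to F were all above the others and in 6 all below, against 15.1% and 20% of all genes. Whether the amount of RNA without a tail in a library had a part in the values of the long guides was not tested. The 20 pan-endothelial markers, none of them at 0, summed to 778 to 1667 FPKM in controls, highest in control 3, and to 840 to 1100 FPKM in mutants, and in 13 of them the libraries lettered D to F were all above the others. The 18 photoreceptor markers had the opposite order, with the libraries lettered D to F all below the others in 14 and all above in 0, against 20% of all genes below. Among 12 tested pericyte and smooth muscle markers the D to F libraries were all above in 1, and among 13 tested microglia and macrophage markers in 0. The part of these cell types was not tested either.

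**Figure D3:**
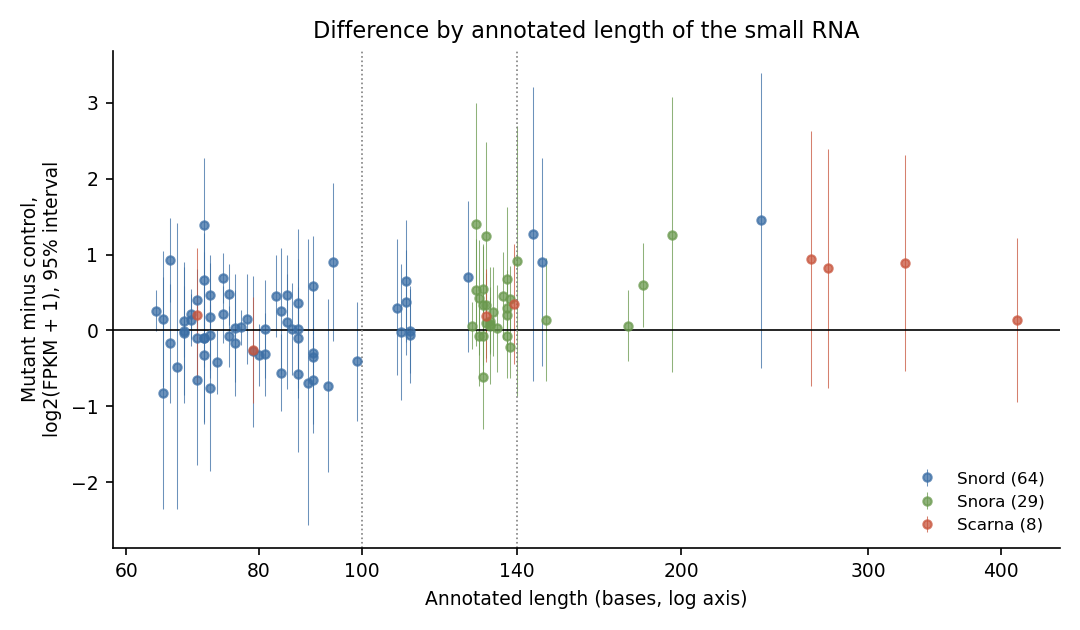
Log2 difference of mutant minus control for 101 tested guide RNAs against annotated length in bases (log axis), by class, with limma 95% confidence intervals and dotted lines at 100 and 140 bases. Points under 100 bases lie on both sides of 0, with a median of 0.00, and each point at 140 bases or more lies above 0, although intervals of all but 1 of these, Snora23, include 0.

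Another set of guides, all short and of low read numbers, separated or nearly separated the groups, and of those named here Snord66 alone also had the libraries lettered D to F all above the others. Snord99, a guide to the large ribosomal RNA from Snhg12, had the smallest p-value of all members. It measured 17.4, 18.4 and 13.1 FPKM in controls 1, 2 and 3 and 27.1, 29.2 and 23.8 FPKM in mutants 1, 2 and 3, so each mutant was above each control. From 19 reads in control 3 to 51 reads in mutant 2 lay behind these values. The mean was 16.3 ± 2.82 FPKM over controls and 26.7 ± 2.77 FPKM over mutants (SD, n = 3 each), and the log2 difference was 0.69 (standard error 0.142, interval 0.36 to 1.02).

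Snord71, from an intron of the adaptor subunit gene Ap1g1, measured 22.3, 23.2 and 21.7 FPKM in controls 1, 2 and 3 and 32.6, 36.1 and 26.4 FPKM in mutants 1, 2 and 3. The controls lay close together, and each mutant was above them (log2 difference 0.47, standard error 0.122, interval 0.19 to 0.75). Snord52, a guide to the large ribosomal RNA, measured 8.79, 4.90 and 9.82 FPKM in the controls and 14.5, 13.1 and 18.9 FPKM in the mutants (log2 difference 0.93, standard error 0.238, interval 0.38 to 1.48). Its reads numbered 16, 7 and 15 in the controls and 18, 24 and 31 in the mutants. Again the groups did not overlap.

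Snord93, a guide to the small ribosomal RNA, had the largest difference among the guides under 100 bases, and it measured 13.0, 3.67 and 4.29 FPKM in controls 1, 2 and 3 and 13.7, 20.7 and 18.4 FPKM in mutants 1, 2 and 3. Control 1 and mutant 1 nearly touched, with 18 and 13 reads, while controls 2 and 3 held 4 and 5 reads. The log2 difference was 1.39 (standard error 0.386, interval 0.49 to 2.28). Snord66, from the translation factor gene Eif4g1, measured 13.4, 12.1 and 16.6 FPKM in the controls and 15.6, 20.5 and 24.2 FPKM in the mutants, where control 3 was above mutant 1 (log2 difference 0.48, interval 0.07 to 0.88). Snord123, from Snhg18, also lay under 0.05 before adjustment, but with 0 to 5 reads per library. It measured 0.736, 0 and 0.878 FPKM in controls 1, 2 and 3 and 1.08, 1.82 and 1.23 FPKM in mutants 1, 2 and 3. Snord123 thus passed the filter of 1 FPKM in 3 libraries only through the mutants, which fixed its direction and the separation of its groups. The counts of higher and of separated members, also those by class, include it.

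The 2 members that were lower in mutants at a p under 0.05 before adjustment were both box C/D guides. Snord88c measured 13.5, 15.2 and 12.9 FPKM in controls 1, 2 and 3 and 9.61, 11.9 and 5.14 FPKM in mutants 1, 2 and 3 (log2 difference -0.66, standard error 0.249, interval -1.23 to -0.08). Its near copy Snord88a, named after its values were seen, measured 9.0, 6.31 and 9.66 FPKM in the controls and 20.4, 8.92 and 11.5 FPKM in the mutants (log2 difference 0.59, interval -0.06 to 1.24). The copies thus went opposite ways, with no overlap of groups for Snord88c and with overlap for Snord88a, and the difference between them was not tested. Each lies within 2 annotated genes on its strand, and the one used here, 2410002F23Rik, is the same for both. Its own log2 difference was -0.09.

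Snord11, a guide to the small ribosomal RNA, measured 4.11, 5.25 and 8.58 FPKM in controls 1, 2 and 3 and 3.77, 3.57 and 3.42 FPKM in mutants 1, 2 and 3, from 5 to 14 reads (log2 difference -0.56, interval -1.06 to -0.05). The mutants were close together and just below control 1. Its host Nop58 encodes a core protein of the box C/D particle itself and had a log2 difference of -0.09. Snord70, from the same host, was at -0.10 (interval -0.76 to 0.57). Next on the lower side were Snord85, at -0.42 (interval -0.84 to 0.00), and Snora31 of Tpt1, at -0.62 (interval -1.30 to 0.06).

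**Figure D4:**
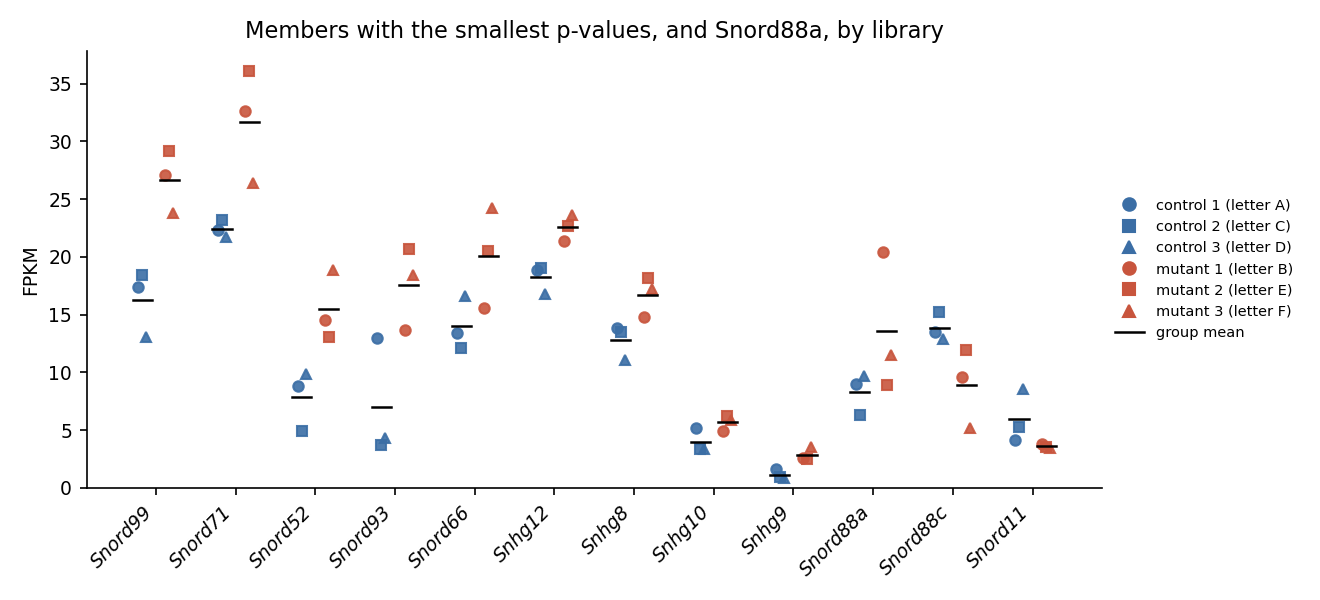
FPKM of 8 guide RNAs and 4 Snhg genes with small p-values or, for Snord88a, chosen beside its near copy, in 3 control (blue) and 3 mutant (red) libraries, with symbols for the replicate and bars for the group mean. Groups do not overlap for Snord99, Snord71, Snord52, Snord93, Snhg12, Snhg8 and Snhg9, with mutants above, or for Snord88c and Snord11, with mutants below. They overlap for Snord66, Snhg10 and Snord88a.

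The Snhg genes are longer and better covered, and 4 of the 14 tested were higher in mutants at a p under 0.05 before adjustment, against 0.896% of all genes. Snhg12, host of Snord99, Snora61 and Snora44, measured 18.9, 19.0 and 16.8 FPKM in controls 1, 2 and 3 and 21.4, 22.7 and 23.6 FPKM in mutants 1, 2 and 3, from 264 to 429 reads at the smallest length that gave whole reads. Each mutant was above each control by a small margin (log2 difference 0.29, standard error 0.0918, interval 0.08 to 0.50). Snhg8 measured 13.8, 13.5 and 11.1 FPKM in the controls and 14.8, 18.2 and 17.2 FPKM in the mutants, again without overlap (log2 difference 0.36, interval 0.08 to 0.64).

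Snhg9, a short host on chromosome 17, measured 1.59, 0.903 and 0.844 FPKM in controls 1, 2 and 3 and 2.59, 2.46 and 3.54 FPKM in mutants 1, 2 and 3. By the smallest length that gave whole reads, 4 to 18 reads or a multiple of them lay behind these values. Each mutant was above each control (log2 difference 0.88, standard error 0.188, interval 0.44 to 1.31). Of the controls only control 1 reached 1 FPKM, so Snhg9 could pass the filter of 1 FPKM in 3 libraries only with mutants. The filter thus favoured higher mutant values for Snhg9, and its separation and p-value are to be read with that limit. Snhg10, host of Scarna13, measured 5.21, 3.36 and 3.36 FPKM in the controls and 4.94, 6.19 and 5.91 FPKM in the mutants, where control 1 was above mutant 1 (log2 difference 0.44, interval 0.04 to 0.84). The hosts with the highest means had smaller differences, namely 0.14 for Snhg1, 0.17 for Snhg6, 0.25 for Snhg20 and 0.14 for Snhg14 with each interval including 0. On the lower side stood Snhg3 at -0.22 (interval -0.48 to 0.04), Snhg17 at -0.08 and Snhg5, whose values ran from 15.8 to 17.7 FPKM over all 6 libraries.

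Guides and hosts were set side by side for 89 pairs in which both were tested, with 68 hosts, of which 16 held more than 1 tested guide. Annotation gave 111 of 116 matched guides a host on the same strand, and none to Snord104, Scarna17, Snord118, Snora17 and Scarna2. Of the 111, 59 lay in an intron, 44 within an exon of at least 1 annotated transcript and 8 over an exon edge, and the tested ones had median log2 differences of 0.15, 0.06 and 0.16. Host differences were small, from -0.15 to 0.88 with a median of 0.03, whereas the guides of these pairs had a median of 0.14 and reached 1.45. The signs matched in 50 pairs and differed in 39, and the Spearman correlation of the log2 differences across pairs was 0.10. The kit does not mark strand, and a host read over an exon that holds a guide cannot be told apart from a guide read.

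Hosts of several guides described above stood close to 0. Snx5, a sorting nexin and host of Snord17, had a log2 difference of -0.05, while Ncapd2, a condensin subunit and host of Scarna10, had -0.01. Both signs were opposite to those of the guides. Ap1g1, the host of Snord71, had -0.13 and 1110038B12Rik, the host of Snord52, had 0.08. Rps3, host of Snord15b, had 0.13. By contrast Snhg9, host of Snora78, had 0.88, the highest of the 68 hosts, but its pass of the filter needed the mutants. The host of Snord93, 2700038G22Rik, was at 0.26 and stood at a mean of 2.87 FPKM, below the guide's own 12.3 FPKM. The median host stood at 4.19 times its guide in FPKM, and in 13 pairs the guide was above the host.

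Guides that the annotation placed in Snhg genes, and those of their hosts that were tested, were all on the positive side. All 8 tested guides so placed had a positive log2 difference, with a median of 0.68. Of their hosts, Snhg9, Snhg10 and Snhg12 were higher at a limma p under 0.05 before adjustment, against 0.896% of all genes. These hosts are among the 4 Snhg genes already counted above and add nothing to that count. Among the 8 is Snord123, which passed the filter only through the mutants and whose host Snhg18 was not tested. Snhg4, at 0.00, and Snhg7, at 0.15, had no match by symbol in the annotation, so no guide could be placed in them. The shared sign therefore leaves out any guides of Snhg4 and Snhg7, and it holds only for hosts matched by symbol. The tested guides without a unique match, Snora43 and Snora16a, were at -0.28 and 0.18. In Snhg12, the host at 0.29 held Snord99 at 0.69, Snora61 at 0.55 and Snora44 at 0.43. In Snhg9, the host at 0.88 held Snora78 at 1.40, with 10.5, 13.7 and 16.2 FPKM in controls 1, 2 and 3 and 9.68, 49.5 and 97.5 FPKM in mutants 1, 2 and 3. Mutant 1 was thus the lowest library for Snora78 and not for Snhg9. The 31 tested guides of ribosomal protein genes had a median of 0.15 with 20 positive, where all tested guides had a median of 0.14 and 64.1% positive. Before adjustment 0 of the 31 lay under 0.05, against 0.896% of all genes higher and 0.316% lower, so a 0 in a list this short says little.

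Guides of a shared host did not always share a sign. In the ribosomal protein gene Rpl13a, at 0.11, the log2 differences were 0.45 for Snord32a, 0.26 for Snord33, -0.10 for Snord34 and -0.35 for Snord35a. In Nop56, another box C/D core protein, the host stood at 0.12, Snord110 at -0.03 and Snord57 at -0.76 (interval -1.86 to 0.33). In Gnl3, a nucleolar GTPase and a host chosen here after its values were seen, the host was at 0.25 (interval 0.02 to 0.48), while Snord69 was at -0.33 and Snord19 at -0.17. The intervals of all of these guides included 0.

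**Figure D5:**
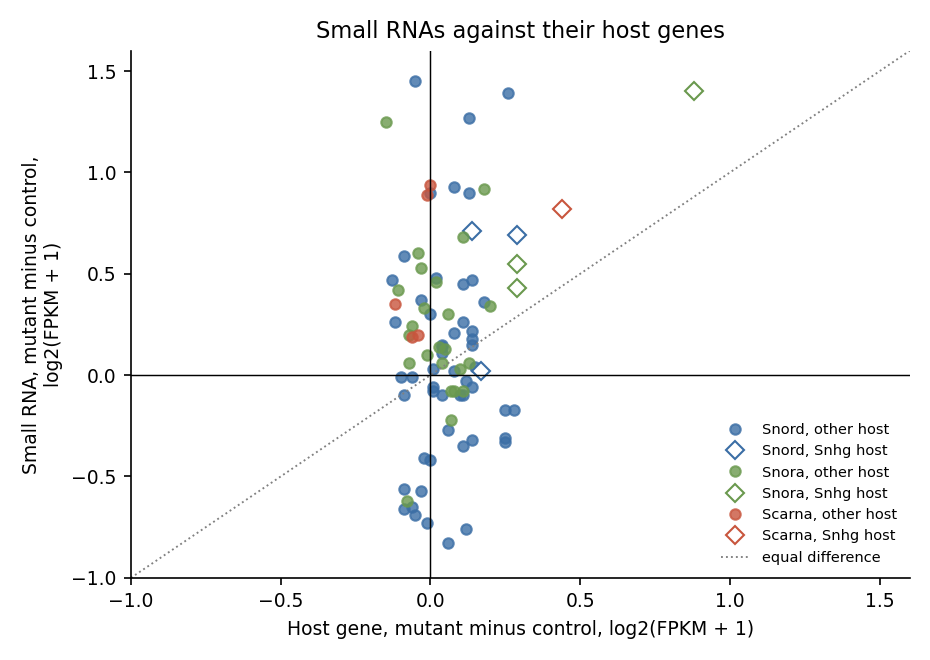
Log2 difference of mutant minus control for 89 guide RNAs (vertical) against that of their host genes (horizontal), with open diamonds for hosts among the Snhg genes and a dotted line for equal differences. Hosts lie from -0.15 to 0.88 and guides from -0.83 to 1.45. The 7 pairs with an Snhg host matched by symbol all lie in the upper right quadrant, and Snhg4 and Snhg7 had no such match.

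The lists of particle proteins, of assembly factors and of nonsense-mediated decay factors gave no call. In each of these 4 lists 0 genes lay at a limma adjusted p under 0.05 and 0 under 0.05 before adjustment. Over all genes 0.896% were higher and 0.316% lower before adjustment, so a 0 in lists this short says little. Of 4 tested box C/D core proteins 2 were positive, and Fbl, the ribose methyltransferase fibrillarin, was lower in each mutant with a log2 difference of -0.23 (interval -0.51 to 0.05). All 4 box H/ACA core proteins were positive, with Nhp2 at 0.18 and Nop10 at 0.08. Of 13 assembly and Cajal body factors 9 were positive, led by Znhit3 at 0.19 and Znhit6, a factor for box C/D assembly, at 0.17. Of 10 factors of nonsense-mediated decay 4 were positive, with Upf3b at 0.22 and Upf3a at 0.18. Among 42 tested genes listed as hosts outside the Snhg family, 31 were positive with a median of 0.06. Against 0.896% of all genes, 1 of these hosts (2.38%) was higher at a p under 0.05 before adjustment. It was Dancr, a noncoding host, at 1.22, 1.52 and 1.53 FPKM in controls 1, 2 and 3 and 1.97, 2.94 and 2.46 FPKM in mutants 1, 2 and 3 (log2 difference 0.51, interval 0.15 to 0.87). Each mutant was above each control for Dancr, while Gas5, a host of the same kind, overlapped at 27.8 to 31.7 FPKM in controls and 25.5 to 38 FPKM in mutants.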

How the data were processed

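Gene expression was read out by RNA sequencing in 3 control and 3 mutant libraries, grouped by the genotype in the labels. What the authors deposited are FPKM, 1 column per library, for 24421 rows. The submitters' processing notes name STAR 2.5.0b, bedtools 2.17.0, Cufflinks 2.2.1, DESeq2 and build mm10, with no roles. Annotation, filters and use of strand were not given in the sources used here. FPKM depend on the gene model, so they compare libraries better than genes.

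Low FPKM lay at whole multiples of the value of a single read. Depth factors were taken from miRNA genes, and with RefSeq gene lengths reads were whole within 0.002 in 101 of 108 guides above 0. For the other 7, for 14 Snhg genes and for most other rows, the smallest length that gave whole reads was searched, so wholeness there is by construction and read numbers may be too low. Recovered reads summed to 21373575 to 30880617 per library. For members with few reads, counting error alone is large.

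Limma 3.58.1 (R 4.3.3), with a prior that follows the mean, was fitted to log2(FPKM + 1) of 13620 genes that reached 1 FPKM in 3 or more libraries. Tests were two-sided, adjusted by Benjamini-Hochberg over all of these genes, with a threshold of 0.05. Differences on that scale understate changes of low genes. The fit was tested on simulated data. Positions, hosts and sequences came from GENCODE M21 by symbol (129 of 134 members), and gene model lengths from RefSeq on GRCm38 or the search above. Of the guides, 9 lay in more than 1 gene, and the smallest gene in the table was taken as host. Python 3.11.15, numpy 2.4.6, pandas 2.3.3, scipy 1.17.1 and matplotlib 3.10.9 were used.

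The members and all lists were chosen with earlier results of these data known. Named genes were, by class, those with the highest means and the smallest p in each direction, with their hosts, Anxa3, and the 2 genes of smallest p in each particle or decay list. Some hosts are not reported here. Other names, and the bounds on length, were chosen after their values were seen. Alternatives were another pseudocount, other filters and scalings, blocks for replicate numbers and for letters, a robust prior, library weights, voom on recovered reads and the omission of each library. Voom with the letter block was added after the data were seen.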

Additional observations from a re-analysis of the deposited data

How the results depend on the processing

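Of 36 named members, 29 kept the sign of their difference under all 18 alternatives, as did 44 of 60 named genes. Many of them were named for a small p in these same libraries, which favours a kept sign, so these counts are no independent support. Anxa3 ranged from -1.15 to -0.53 with 1 library left out. The counts of genes and of members called were 0 under each alternative except library weights, which called 145 genes and 27 members, and at an adjusted p under 0.1 both were 0. Outside library weights the smallest limma adjusted p of any member was 0.144, for Snord93 without control replicate 1. Of the 60 named genes, many of them picked by small p, 17 passed with library weights, against 1.06% of all genes. Voom was the only fit on recovered reads, and no negative binomial count test was run. The median tested guide had a mean of 25 reads per library, and the smallest difference detectable at that depth was not tested.

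Deviations of same-numbered libraries from their group means correlated at 0.249, -0.151 and 0.39, and those of differently numbered libraries at -0.352 to 0.231. With 3 libraries per group these values cannot settle whether replicate numbers pair the samples. A replicate block changed no adjusted call, and with it 27 members were higher and 5 lower at a p under 0.05 before adjustment, against 1.51% and 0.668% of all genes, where the unblocked fit gave 11 and 2. The count of 11 became 7 with voom, 65 with library weights and 8 to 37 with 1 library left out. The count of 2 became 1 without a filter, 12 with the letter block, 8 with library weights, 0 with voom, 1 with voom and the letter block, and 2 to 5 with 1 library left out, and quantile normalization and a robust prior gave 3. Library weights gave medians of 0.41 for Snord, 0.29 for Snhg and 0.24 for guides under 100 bases. With 1 library left out the medians ran from -0.16 to 0.22 for Snord, from 0.13 to 0.28 for Snhg, from 0.14 to 0.41 for Snora, from 0.17 to 0.47 for Scarna, from -0.17 to 0.20 for guides under 100 bases and from 0.49 to 1.62 for those of 140 bases or more.

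Signs turned for some named genes. The letter block gave -0.13 for Snord96a, -0.14 for Scarna2, -0.02 for Eif4g1 and 0.08 for Ipo7, and with voom it gave -0.16, -0.10, -0.01 and 0.09 for the same genes. Library weights gave 0.04 for Snora31, 0.37 for Scarna17, -0.04 for Nop10, 0.01 for Snx5, 0.04 for Tpt1, 0.04 for Ncapd2 and 0.08 for Atg16l1. Voom gave 0.02 for Snhg5, 0.01 for Ncapd2 and 0.02 for Atg16l1, and quantile normalization 0.01 for Atg16l1 and 0.00 for Snhg5 and Scarna2. With 1 library left out, members ran from -1.42 to 0.06 for Snord98, -0.29 to 0.26 for Snord96a, -0.56 to 0.19 for Snora43, -0.09 to 0.49 for Scarna2, -0.59 to 0.08 for Scarna17 and -0.04 to 0.03 for Snhg5. Other genes ran from -0.03 to 0.16 for Nop10, -0.10 to 0.00 for Snx5, -0.02 to 0.09 for Eif4a2, -0.02 to 0.13 for Ccar1, -0.02 to 0.07 for Eif4g1, -0.21 to 0.08 for Ipo7, -0.08 to 0.09 for Ncapd2 and -0.08 to 0.07 for Atg16l1. The cause of these turns was not tested.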
